A study of Mus musculus with 2 samples.

Results

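CC chemokine genes were followed in RNA of the macrophage nucleoplasm, the soluble inner compartment of the nucleus. They are Ccl2, Ccl3, Ccl4, Ccl5, Ccl6, Ccl7, Ccl9, Ccl12, Ccl17 and Ccl22, 10 of 55536 annotated genes, found by gene symbol in the deposited tables with no threshold on their levels. The cells were macrophages grown in culture from bone marrow of C57BL/6J mice. Both libraries come from cells given 100 ng/ml Lipid A, the portion of lipopolysaccharide that Toll-like receptor 4 binds, over 12 h, then washed and left 12 h without it. They were harvested at 0 min of a renewed stimulation with the same dose. RNA depleted of ribosomal RNA was sequenced in biological replicates 1 and 2 of this single group. Replicate 1 started from 1 µg of RNA and replicate 2 from 500 ng, with a stated size range of 250 to 400 in both. The labels record 2 separate biosamples under 1 donor record and give neither sex nor age. Nothing states that they came from different animals, so the spread between them may be partly technical. With 1 group there is no untreated reference, and no test between conditions was made.

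CC chemokines are small secreted proteins named for a pair of adjacent cysteines near the start of the mature chain. They bind receptors of the CCR family, which couple to G proteins, and direct the migration of monocytes, lymphocytes, dendritic cells and granulocytes. In macrophages, Toll-like receptor 4 signals through NF-kappaB and through type I interferon, and many CC chemokine genes are targets of these routes.

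All values below are from the deposited gene-level tables unless a sentence names the second quantification, a further deposited transcript table made straight from the reads. TPM is a level corrected for transcript length and depth, so that genes of different length can be set side by side. Replicate 1 held 22907877 expected counts over annotated genes and replicate 2 held 18612405. The 10 genes together held 15787 counts in replicate 1 and 11557 in replicate 2, which is 0.0689% and 0.0621% of these totals. Of 12 macrophage markers, 12 stood at 10 TPM or more in both libraries, led by Lyz2 (lysozyme) at 1368 and 1126 TPM. Of 8 dendritic cell markers, 7 were under 1 TPM in both, and the highest, Batf3, had 6.99 and 2.43 TPM. All 8 T and NK cell markers were under 1 TPM and 5 had no count in either library, although Cd3d, the highest of them, reached 1.76 and 4.2 TPM in the second quantification. All 4 B cell markers and all 6 stromal markers were under 1 TPM, and so were 7 of 9 neutrophil markers, the exception above 10 TPM being Csf3r at 86.7 and 66.6 TPM, a receptor gene that macrophages also express.

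The feature that gives the family its name is printed here from coding sequence, because it is what the 10 genes share that does not depend on expression. In the GENCODE M21 transcripts each gene had exactly 1 in-frame pair of adjacent cysteine codons. The pair lay in exon 2 of the 8 genes with 3 exons and in exon 3 of Ccl6 and Ccl9, which have 4 exons. Capitals mark the codon pair, the flanking codons are in lower case, and positions are on mm10.
Ccl2, chr11:82036494-82036523, plus strand: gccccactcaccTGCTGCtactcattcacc
Ccl7, chr11:82046526-82046555, plus strand: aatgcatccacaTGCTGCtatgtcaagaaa
Ccl12, chr11:82102622-82102651, plus strand: accccagtcacgTGCTGTtataatgttgtt
Ccl4, chr11:83663470-83663499, plus strand: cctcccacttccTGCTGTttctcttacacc
Ccl5, chr11:83529230-83529259, minus strand: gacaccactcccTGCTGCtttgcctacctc
Ccl6, chr11:83589374-83589403, minus strand: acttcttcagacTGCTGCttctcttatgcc
Ccl9, chr11:83575914-83575943, minus strand: gactcttcagatTGCTGCctgtcctataac
Ccl17, chr8:94811200-94811229, plus strand: gtaggccgagagTGCTGCctggattacttc
Ccl22, chr8:94746922-94746951, plus strand: gaagacagtatcTGCTGCcaggactacatc
In the sequences shown, the codons were TGC and TGT in Ccl4 and Ccl12, and TGC and TGC in the others. Outside this pair the genes differed in length and, in part, in sequence. Coding sequences ran from 273 bases in Ccl5 to 444 in Ccl2, and pairwise identity, gaps counted as differences, ran from 36.9% between Ccl2 and Ccl17 to 66.7% between Ccl3 and Ccl4. Ccl6 and Ccl9 followed at 64.6%. Over aligned bases alone, identity was 65.9% for Ccl2 and Ccl17 and 69.6% for Ccl3 and Ccl4. The longest identical run between the main transcripts of any 2 of the genes was 25 bases, in Ccl6 and Ccl9, and the deposited posterior SD of the expected count was 0 for each of the 10 genes in both libraries.

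Of the 10 genes, 8 stood at 10 TPM or more in both libraries and the other 2, Ccl22 and Ccl17, were under 1 TPM in both. With TPM rescaled to protein-coding genes, Ccl22 passed 1 TPM at 1.27 and 2.13. Over the 22028 protein-coding genes, 19.7% reached 10 TPM in both libraries and 44.4% reached 1 TPM. The median level of the 10 genes was 5.49 ± 0.16 on the log2(TPM + 0.1) scale, against -0.91 ± 0.05 over all protein-coding genes (SD, n = 2 libraries). Their summed TPM was 1317 in replicate 1 and 919.8 in replicate 2, and Ccl5 alone made up 65.2% and 54.3% of it. In the second quantification the sums were close together, at 606 and 596 TPM, with Ccl5 at 60.7% and 51.5%. In bulk RNA, fewer expressing cells and less RNA per cell cannot be told apart, and that holds for every level given here.

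**Figure D1:**
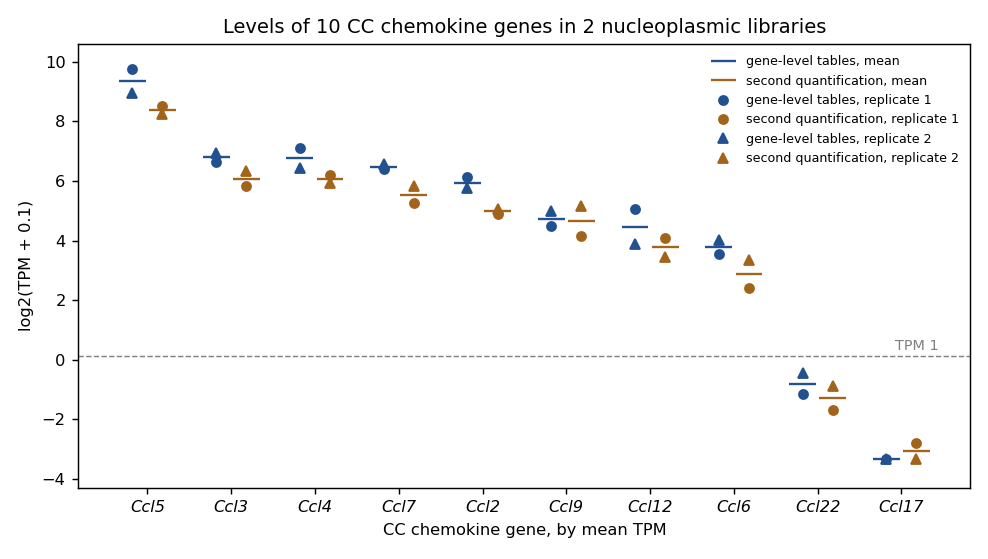
Levels of the 10 CC chemokine genes on the log2(TPM + 0.1) scale, ordered by mean TPM. Points are libraries (circles replicate 1, triangles replicate 2), short lines are means, blue is the gene-level tables and brown the second quantification, and the dashed line marks 1 TPM. Ccl5 lies above all others in both libraries, while Ccl22 and Ccl17 lie below the dashed line.

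Ccl3, Ccl4 and Ccl5 encode inflammatory chemokines known for drawing T cells, NK cells and monocytes. Ccl5 (ENSMUSG00000035042.2, mm10 chromosome 11, 83525778 to 83530518, minus strand) had 7731 and 4057 counts, or 858 and 499 TPM, in replicates 1 and 2. It ranked 27 and 37 among protein-coding genes by TPM. The lower of its levels, 499 TPM, was above the highest of any other gene of the 10, 137 TPM for Ccl4 in replicate 1, so its range overlapped none of theirs.

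Ccl3 (ENSMUSG00000000982.5, chromosome 11, 83647844 to 83649355, minus strand) had 1549 and 1666 counts, or 100.4 and 123 TPM. Ccl4 (ENSMUSG00000018930.3, chromosome 11, 83662584 to 83664683, plus strand) had 1697 and 937 counts, or 137 and 85.9 TPM. Their means were 112 ± 16.2 TPM for Ccl3 and 112 ± 36.4 TPM for Ccl4 (SD, n = 2 each), and their ranges overlapped. Ccl4 was the higher of the pair in replicate 1 and Ccl3 in replicate 2, in both quantifications. These neighbours lie 13.2 kb apart on opposite strands.

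Ccl2, Ccl7 and Ccl12 encode monocyte chemoattractant proteins that act through CCR2, the receptor that monocytes need to leave the marrow. Ccl7 (ENSMUSG00000035373.2, chromosome 11, 82045712 to 82047525, plus strand) had 1382 and 1355 counts, or 84.0 and 94.3 TPM. Ccl2 (ENSMUSG00000035385.5, chromosome 11, 82035571 to 82037453, plus strand) had 1260 and 905 counts, or 69.8 and 54.3 TPM. Ccl7 was above Ccl2 in both libraries, by 1.20 and 1.74 times, and their ranges did not overlap. Ccl7 and Ccl4 overlapped in range, since Ccl4 was 1.63 times Ccl7 in replicate 1 and 0.910 times in replicate 2.

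Ccl12 (ENSMUSG00000035352.3, chromosome 11, 82101845 to 82103400, plus strand), the mouse gene for monocyte chemotactic protein 5, had 291 and 114 counts, or 33.5 and 14.5 TPM. It was the lowest of the 3 genes in both libraries. Its mean of 24.0 ± 13.4 TPM lay between those of the CCR1 ligand genes described next. Its range overlapped both of theirs in the gene-level tables, but neither in the second quantification, where Ccl12 had 17.1 and 10.7 TPM.

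Ccl6 and Ccl9 encode ligands of mouse CCR1 and are rodent genes, made largely by myeloid cells. Ccl9 (ENSMUSG00000019122.8, chromosome 11, 83572919 to 83578636, minus strand) had 1545 and 2153 counts, or 22.1 and 31.5 TPM. Ccl6 (ENSMUSG00000018927.3, chromosome 11, 83587882 to 83593087, minus strand) had 312 and 339 counts, or 11.6 and 16.0 TPM. Ccl9 was above Ccl6 in both libraries with no overlap of ranges. Ccl9 had more counts than Ccl2 in both libraries but a lower TPM, its protein-coding transcript being 3006 bases long and that of Ccl2 813. In the second quantification Ccl9 had 17.5 and 35.5 TPM and Ccl2 29.8 and 33.3 TPM, so that their ranges overlapped there.

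Ccl17 and Ccl22 encode ligands of CCR4, known from dendritic cells and from macrophages exposed to interleukin 4, and they lie 58.8 kb apart on chromosome 8. Ccl22 (ENSMUSG00000031779.3, 94745590 to 94751699, plus strand) had 20 and 31 counts, or 0.35 and 0.63 TPM. Ccl17 (ENSMUSG00000031780.2, 94810453 to 94812036, plus strand) had no count in either library, which at 3 counts allows up to 0.369 TPM in replicate 1 and 0.409 in replicate 2. The second quantification gave Ccl17 1 estimated count in replicate 1 and 0 in replicate 2. Ccl6, the next gene above Ccl22, was 33.2 and 25.4 times higher, so these CCR4 ligand genes stood apart from the other 8 by more than the spread between libraries.

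By mean TPM the order was Ccl5, Ccl3, Ccl4, Ccl7, Ccl2, Ccl9, Ccl12, Ccl6, Ccl22 and Ccl17, and it was identical in the second quantification. Between neighbours in this order the ranges of the 2 libraries did not overlap for Ccl5 and Ccl3, Ccl7 and Ccl2, Ccl2 and Ccl9, or Ccl6 and Ccl22. Ccl22 and Ccl17 cannot be separated in replicate 1, where the 0.35 TPM of Ccl22 lies under the level that a count of 0 allows for Ccl17. In replicate 2 the 0.63 TPM of Ccl22 lies above that level, which is 0.409 TPM there. The other 4 neighbouring pairs overlapped. In the second quantification Ccl3 and Ccl4 also overlapped, but Ccl4 and Ccl7, Ccl9 and Ccl12, and Ccl12 and Ccl6 did not.

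The other 8 genes all lie on chromosome 11, in 2 groups. Ccl2, Ccl7 and Ccl12 share a stretch with Ccl11 and Ccl8, and Ccl5, Ccl9, Ccl6, Ccl3 and Ccl4 form another, 1490 kb from the start of Ccl2 to the start of Ccl5. Levels varied between close neighbours. Ccl11, an eosinophil attractant gene between Ccl7 and Ccl12, had 4 and 1 counts, and it was named after its values were seen.

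**Figure D2:**
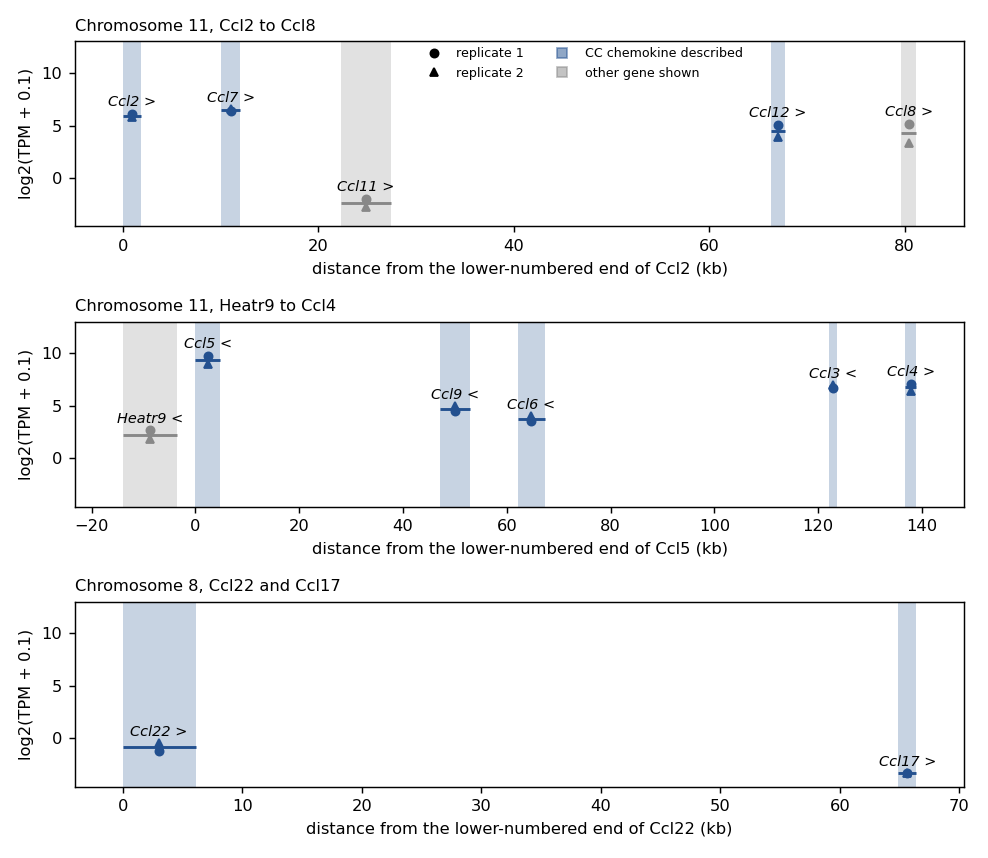
Position and level of the CC chemokine genes in their 3 neighbourhoods. The x axis is distance in kb, shaded spans are genes drawn to scale (blue for the 10 genes, grey for others), arrowheads give the strand, circles and triangles are log2(TPM + 0.1) in replicates 1 and 2 and lines their mean. Ccl11 lies near the bottom between Ccl7 and Ccl12, and on chromosome 8 both genes lie low.

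Annotated genes that overlap these genes or lie within 5 kb of them had few counts, apart from Heatr9. Gm17268, on the opposite strand across Ccl2, had no count in either library. E230016K23Rik, on the opposite strand across Ccl6 and within 5 kb of Ccl9, had 3 and 0 counts, Rpl9-ps1 near Ccl3 had 1 and 2, and the small nuclear RNA gene Gm23247 near Ccl5 had none. Heatr9, on the same strand as Ccl5 and 3603 bases from it, had 293 and 143 counts, or 6.15 and 3.51 TPM. The use of strand in counting is not given in the sources used here, so reads of genes that overlap on opposite strands cannot be told apart. The second quantification gave Gm17268 2.17 and 0.620 TPM, from 3 and 1 estimated counts. It gave E230016K23Rik 0.50 and 0.843 TPM, from 80.2 and 108 estimated counts, beside 363 and 528 for Ccl6. Heatr9 had 981 and 526 estimated counts there.

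The replicates were compared through the log2 ratio of replicate 2 over replicate 1 of expected counts after TMM scaling, a correction for composition. A gene is called apart here when this ratio is at least 1 in size and the mean count at least 100. By that rule 2.00% of the 10198 genes tested were apart, 1.18% lower and 0.824% higher in replicate 2. Ccl17 and Ccl22 had too few counts, and of the 8 CC chemokine genes tested 1 was apart, Ccl12. The 8 ratios were split evenly, with 4 genes higher and 4 lower in replicate 2. Their median was 0.00, against -0.01 over all genes tested, while the median size of the ratio was 0.49, against 0.21.

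Ccl12 had a log2 ratio of -1.09, with an exact 95% counting interval of -1.42 to -0.78, and of -1.04 in the second quantification. Ccl5 had a ratio of -0.67 (-0.73 to -0.62) and Ccl4 of -0.60 (-0.72 to -0.49), so both were lower in replicate 2 by more than counting error. Ccl2 had a smaller ratio of -0.22 (-0.35 to -0.10). These 4 are the genes that were lower in replicate 2.

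Ccl9 had the largest positive ratio of those tested, 0.73 (0.64 to 0.83). Ccl6, its neighbour at 9.25 kb, had 0.37 (0.15 to 0.60), and Ccl3 had 0.36 (0.26 to 0.46). In the second quantification the ratio of Ccl3 was 0.09, and no ratio changed sign. Ccl7 had 0.23 (0.12 to 0.34). Ccl22, with 20 and 31 counts, had 0.87 with a wide interval of 0.03 to 1.78. The intervals cover counting error alone, and each ratio sets 1 library against 1 other.

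By log2 ratio, all 12 macrophage markers were lower in replicate 2, as were 5188 of the 10198 genes tested. The log2 ratios of these markers had a median of -0.33, against -0.01 over all genes tested. Fcgr1 among the markers was apart at -1.04. In the gene-level tables the summed TPM of the 12 markers was 4754 in replicate 1 and 3610 in replicate 2. This direction did not hold for TPM in the second quantification, where Lyz2 had 502 and 570 and Mpeg1 294 and 334. By TPM, only Cd68, Fcgr1 and Ctss were lower in replicate 2 there. The log2 ratios of all 12 were negative in the second quantification as well. The summed TPM of the dendritic cell markers was 10.02 and 5.03, of which Batf3 alone had 6.99 and 2.43. That of the neutrophil markers was 88.4 and 68.9, of which Csf3r alone had 86.7 and 66.6. In the second quantification Batf3 had 4.08 and 2.57 TPM and Csf3r 46.2 and 45.0. That of the T and NK cell markers was 0.04 and 0.15 in the gene-level tables. These sums thus rest largely on single genes. The starting amount of RNA also differed between the libraries, and the replicate number and that amount cannot be told apart. The part of these in the chemokine ratios was not tested.

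**Figure D3:**
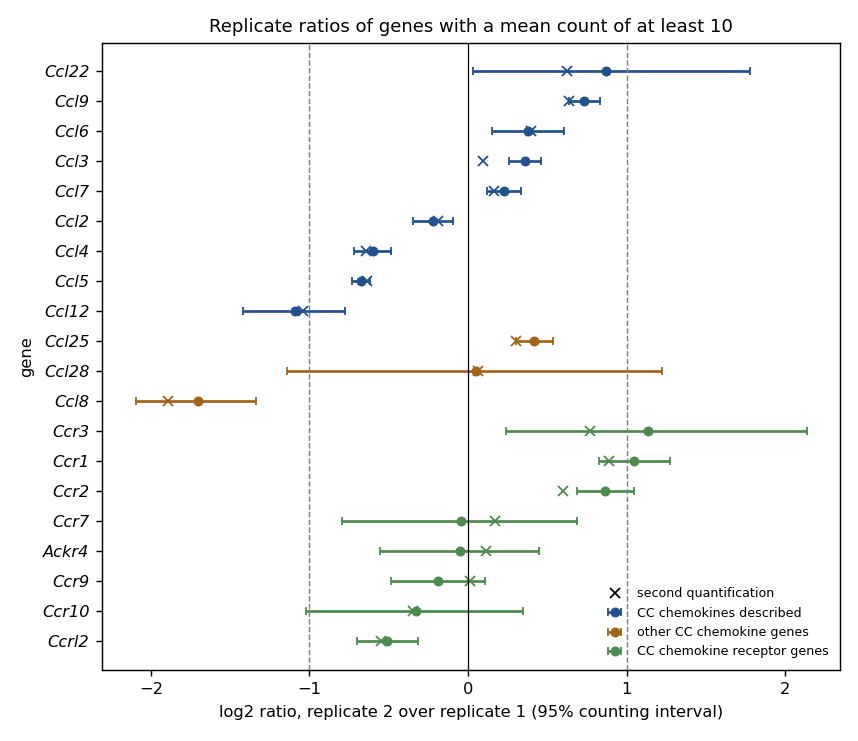
Log2 ratio of replicate 2 over replicate 1 for the CC chemokine genes and the receptor genes reported, averaging 10 counts or more. Dots with bars are gene-level ratios with exact 95% counting intervals, crosses the second quantification, and dashed lines a ratio of 1 in size. Ccl12 and Ccl8 lie to the left of the lower dashed line at -1.09 and -1.70. Ccr1 and Ccr3 lie to the right of the upper one at 1.05 and 1.14. Ccr3 had 16 and 30 counts, too few for the rule, and a wide interval of 0.24 to 2.14.

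Of 11 further CC chemokine genes in the list, 2 reached 1 TPM in both libraries, 8 were under 1 TPM in both, and 4 of these, Ccl1, Ccl20, Ccl21a and Ccl26, had no count. Ccl8, a monocyte chemoattractant gene 11.8 kb beyond Ccl12, had 293 and 75 counts, or 36.4 and 10.3 TPM. Its log2 ratio was -1.70 (-2.10 to -1.34), and -1.89 in the second quantification, so it was apart in the same direction as Ccl12. The coding sequences of Ccl12 and Ccl8 were 64.4% identical, and the longest identical run of their transcripts was 13 bases. Ccl28, a gene known from mucosal epithelium, had 15 and 13 counts.

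Ccl25, known as a thymic and gut chemokine, was the other gene past 1 TPM, with 1131 and 1266 counts, or 19.0 and 25.6 TPM. Most of this level was assigned to single-exon transcripts annotated as retained introns, Ccl25-209 with 42.0% and Ccl25-210 with 43.2% of the gene's TPM on average. Elavl1, which overlaps Ccl25 on the opposite strand, had 1378 and 1090 counts, so the reads of this pair are uncertain.

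The 100 bases upstream of Ccl12 and Ccl8 are shown because these neighbouring genes were both apart in the same direction, and those of Ccl9 because it was the one gene of those searched with more than 1 kind of motif. They were chosen after these values were seen. The sequences are from the RefSeq table of GRCm38.p6, which matched 6 of the 10 genes (Ccl3, Ccl6, Ccl9, Ccl12, Ccl17 and Ccl22) and Ccl8. The RefSeq start differed from the GENCODE start for Ccl3 and Ccl22, and the 100 bases before it lie mostly inside the GENCODE gene for Ccl22. Each stretch shown runs 5′ to 3′ on the strand of its gene and ends just before the annotated start. Capitals mark motif matches.
Ccl12, chr11:82101745-82101844, plus strand: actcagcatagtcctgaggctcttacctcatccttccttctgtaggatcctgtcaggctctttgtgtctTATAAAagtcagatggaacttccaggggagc
Ccl8, chr11:82115085-82115184, plus strand: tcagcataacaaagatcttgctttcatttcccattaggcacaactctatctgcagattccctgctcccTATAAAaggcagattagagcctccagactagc
Ccl9, chr11:83578637-83578736, minus strand: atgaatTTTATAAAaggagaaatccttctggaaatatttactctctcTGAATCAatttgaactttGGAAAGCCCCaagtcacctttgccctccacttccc
In Ccl12 and Ccl8 the capitals are the TATA box TATAAA, beginning 31 and 32 bases before the start. The 2 stretches were 57.1% identical, the highest value among the 7 stretches before RefSeq starts. In Ccl9 the capitals are, from left to right, overlapping matches to TATAAA on both strands, the AP-1 motif TGANTCA and a match to the NF-kappaB consensus on the opposite strand, which begins 35 bases before the start. Both strands of windows of 300 bases, 250 before and 50 after the start, were searched. TATAAA was in 2 of the 6 windows, Ccl9 and Ccl12, and in 13.6% of the 32851 windows of the table. The AP-1 motif was in 1 of 6 against 7.81%, the NF-kappaB consensus in 1 of 6 against 4.51%, and the core of the interferon-stimulated response element in 0 of 6 against 3.44%. Ccl5, Ccl4, Ccl7 and Ccl2, which with Ccl3 had the highest mean TPM of the 10 genes, had no window and were not searched. A match describes letters in a window and no binding was measured.

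Many cytokine mRNAs carry AU-rich elements in their 3′ untranslated region, where decay factors such as tristetraprolin bind. The heptamer TATTTAT, searched after the levels were known, was present once in each of Ccl3, Ccl4, Ccl12 and Ccl22 and absent in the other 6 genes. Among protein-coding genes whose 3′ untranslated region was within 20% of the same length, 9.47% held it for the length of Ccl3, 8.05% for Ccl4, 4.87% for Ccl12 and 37.9% for Ccl22. The longest region, 2468 bases in Ccl9, held none, where 46.8% of regions of that length did. The genes with the heptamer ran from the second to the ninth place in the order of levels.

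Because the RNA is nuclear, the annotated transcripts of each gene were also followed. Ccl3, Ccl4, Ccl7 and Ccl17 have 1 annotated transcript. Over the 10 genes, protein-coding transcripts held 92.5% and 91.8% of the summed TPM in replicates 1 and 2, and retained-intron transcripts 7.05% and 8.15%. Most of this sum is Ccl5, and genes with 1 transcript enter it at 100%. These shares depend on how reads common to several transcripts were divided by the quantification. In nuclear RNA, intron reads of RNA not yet spliced also cannot be told apart from reads of retained-intron transcripts.

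Ccl2-202, the retained-intron transcript of Ccl2, keeps the whole of intron 2, which is 325 bases long. It held 15.4% and 28.8% of the gene's TPM, and 16.4% and 26.3% in the second quantification. Its expected count was 268 in replicate 1 and 338 in replicate 2, while that of the protein-coding Ccl2-201 was 992 and 567. The share was thus higher in replicate 2 in both quantifications. It was below the median retained-intron share of 29.2% and 30.7% over 6143 protein-coding genes. These are the genes at 1 TPM or more in both libraries that have such a transcript.

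Ccl5-202 contains 428 of the 3091 bases of intron 2. It held 9.06% and 10.3% of the gene's TPM, close together in the 2 libraries and below the same medians. The second quantification gave 14.3% and 14.8%.

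Ccl6 had the highest retained-intron share of the 10 genes, 37.9% and 48.0%, above the medians in both libraries. It was the sum of Ccl6-202, which holds 71 of 3061 bases of intron 1, and Ccl6-203, which holds 284 of 342 bases of intron 2. The second quantification put it at 50.9% and 60.7%. These shares rest on few reads, since Ccl6-202 had 53.6 and 77.7 expected counts and Ccl6-203 had 6 and 11.3.

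Ccl9, Ccl12 and Ccl22 have a second transcript annotated as processed, without an open reading frame. Ccl9-202, which is 398 bases long, held 14.1% of the gene's TPM in replicate 1 and 0% in replicate 2, from 15.1 and 0 expected counts. In the second quantification it held 57.7% and 55.6%, from 142 and 239 estimated counts, so the division of Ccl9 reads differed more between the quantifications than between the libraries. Ccl12-202 held 7.19% and 3.31%, and 16.4% and 16.2% in the second quantification. Ccl22-202 had no count in either.

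**Figure D4:**
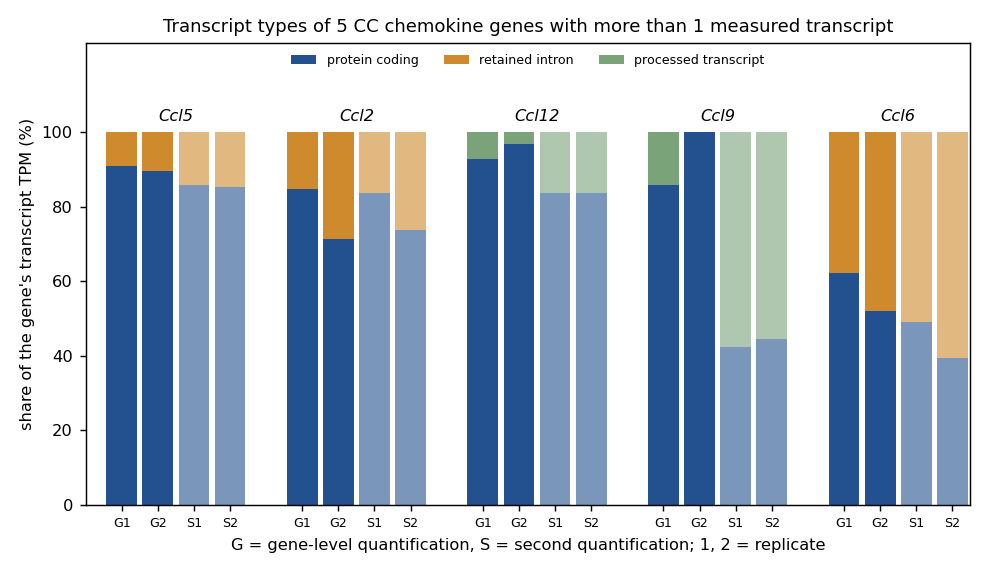
Share of each gene's transcript TPM by annotated transcript type for the 5 CC chemokine genes with more than 1 measured transcript. Bars G1 and G2 are replicates 1 and 2 in the gene-level quantification, S1 and S2 (paler) in the second quantification. The retained-intron part is largest in Ccl6, at 37.9% and 48.0% in the gene-level quantification, and the processed part of Ccl9 differs between quantifications.

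Receptor genes for CC chemokines, atypical receptors included, were read in the same libraries. Ccr6, Ccr8, Ackr1 and Ackr2 had no count in either. Ccr2, the receptor for Ccl2, Ccl7 and Ccl12, had 3.82 and 7.14 TPM. Its ratio was 0.87 (0.68 to 1.05), but 0.60 in the second quantification, outside that interval. Ccr1, the receptor for Ccl6 and Ccl9 as well as Ccl3 and Ccl5, had 3.46 and 7.04 TPM. It was apart, with a log2 ratio of 1.05 (0.82 to 1.27), but in the second quantification its ratio was 0.89. Ccrl2, a receptor-like protein that does not signal on its own, had 12.1 and 7.95 TPM with a ratio of -0.51 (-0.70 to -0.32).

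Ccr9, the receptor for Ccl25, had 1.62 and 1.41 TPM, the scavenging receptor gene Ackr4 1.33 and 1.22, and Ccr10, the receptor for Ccl28, 1.11 and 0.86. Ccr7, which guides cells to lymph nodes, had 0.73 and 0.69 TPM and the eotaxin receptor gene Ccr3 0.18 and 0.40. Ccr4, the receptor for Ccl17 and Ccl22, named after its values were seen, had 4 and 3 counts. Ccl17, Ccl22 and Ccr4 were thus under 1 TPM in these libraries as deposited, and Ccl22 was above it with TPM rescaled to protein-coding genes.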

How the data were processed

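Total RNA-seq of the nucleoplasmic fraction was deposited for 2 biological replicates of 1 group. The gene-level and transcript tables hold the authors' expected count and TPM from transcriptome alignments, and a second transcript table per library holds the authors' estimated counts and TPM made from the reads themselves. Per the notes deposited beside the files, mm10 and GENCODE M21 were used. Programs and strand setting were not given in the sources used here. Expected counts totalled 22907877 and 18612405, and 26345 entries per library that name no annotated gene (1.01% and 0.336% of counts) were left out.

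The 10 genes, the lists and the rules were chosen with earlier results of these data known. Counts were rounded and scaled by TMM (edgeR 4.0.16, R 4.3.3) (prior count 0.5), using the 14892 genes that filterByExpr kept. DESeq2 1.42.0 size factors, library totals, TMM over all genes, the second quantification, a pseudocount of 1 in place of 0.1, TPM rescaled to protein-coding genes, a mean count of at least 10 and each library alone were alternatives. No p-value was computed. Intervals are exact (Clopper-Pearson) at 95%, and they and the floor of 3 counts cover counting error only. The ratio calculation was also run on simulated counts, whose outcome is not given and is not used as support here. Named genes were the 10 genes, listed CC chemokine and receptor genes with at least 10 counts in both libraries and those at 0, genes within 5 kb, and the highest marker of each list. Fcgr1, Ccl11, Ccr4 and Ccl24 were named after their values were seen. The chromosome entries of Ccl19 and Ccl21a were used. Python 3.11.15, pandas 2.3.3 and Biopython 1.88 were used. A listed receptor gene and a sequence are not reported here.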

Additional observations from a re-analysis of the deposited data

How the results depend on the processing

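The median level of the 10 genes, 5.49 on the log2(TPM + 0.1) scale, was 4.81 in the second quantification, 7.29 with TPM rescaled to protein-coding genes and 5.95 without Ccl17, which had under 10 counts. The share of their TPM in protein-coding transcripts, 92.2% on average, was 87.1% in the second quantification. Single libraries gave 5.37 and 5.60 for the median level and 91.8% and 92.5% for the share. The count of genes apart was 1 under every alternative run. The number at 1 TPM or more in both libraries was 9 with TPM rescaled to protein-coding genes, where Ccl22 passed, and 8 under the others. The number at 10 TPM or more in both libraries was 7 in the second quantification, where Ccl6 had 5.20 and 10.2 TPM, and 8 under the others. Of 9 log2 ratios, none changed sign, and those of Ccl3 (0.09) and Ccl9 (0.64) in the second quantification moved beyond their counting intervals. No paired analysis was possible because there is 1 group. Depth limits Ccl17 and Ccl22, whose levels rest on at most 31 counts.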

Other observations

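Ccl24, an eosinophil attractant gene, had 8 and 0 expected counts in the gene-level tables of replicates 1 and 2 but 107 and 92 estimated counts, or 1.20 and 1.26 TPM, in the second quantification. Ccl11 had 4 and 1 expected counts against 30 and 25 estimated counts. For the 10 CC chemokine genes described above the second quantification gave a lower TPM than the gene-level tables in most cases. Over those of them at 1 TPM or more, the median ratio was 0.481 in replicate 1 and 0.645 in replicate 2. Over protein-coding genes at 1 TPM or more it was 0.558 and 0.751. The small nuclear RNA gene Gm23247 near Ccl5 was at 0 in the gene-level tables and at 8.43 and 10.1 TPM in the second quantification.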
